A study of Homo sapiens with 6 samples.

Results

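The genes described here encode the machinery that carries proteins into mitochondria: the outer membrane TOM and SAM complexes, the inner membrane TIM complexes, the import motor and the matrix processing peptidase. They were chosen by symbol (the TIMM and TOMM series, TIMMDC1, PAM16, PMPCA, PMPCB, SAMM50, MTX1 to MTX3, GRPEL1 and GRPEL2), which took 33 of 25343 genes in the table. Of the 33 genes, 31 had enough counts to be tested and 2 (PAM16 and TOMM20L) did not. The cells were parental A375, an established human line from a malignant melanoma. A set of 3 vehicle libraries (0 nM panobinostat, the same volume of PBS) was compared with 3 libraries of cells given 50 nM panobinostat, an inhibitor of histone deacetylases, and RNA was taken from both groups after 24 h. All libraries come from this 1 line, and the labels do not tell separate cultures from repeat libraries, so the variation behind each p-value may be technical only.

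Most mitochondrial proteins are encoded in the nucleus, made in the cytosol and imported. Receptors of the TOM complex recognise them and pass them through the TOMM40 channel. From there, the TIM23 complex and its motor take proteins with a cleavable presequence into the matrix, the small TIM chaperones escort membrane proteins across the intermembrane space to the TIM22 complex or to SAM, and the processing peptidase removes the presequence. Proliferating cells need this route to build mitochondria for their daughters.

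Library totals were 32293283 to 38944399 counts, and a gene at 3 counts stood at 0.0774 to 0.0928 CPM (counts scaled to library size, here with TMM factors). Of the melanocyte lineage markers 7 of 9 had a count in some library, and their summed level was 899 to 1008 CPM under vehicle and 589 to 649 CPM under panobinostat. Of the 6 tested, SOX10, MITF, PAX3 and S100B fell and PMEL and TYRP1 rose. SOX10 made up most of the sum in vehicle, and its level was 813 ± 56.3 CPM there and 368 ± 21.8 CPM under panobinostat (SD, n = 3). PMEL, a melanosome protein gene, went from 0.628 ± 0.118 to 194 ± 9.46 CPM, while MLANA and TYR had 0 counts in every library. Markers of other cell types were low. Their summed level in vehicle and with panobinostat was 0.232 to 0.285 and 0.635 to 0.835 CPM for 5 leukocyte genes, 9.06 to 10.4 and 18.4 to 18.8 CPM for 4 endothelial genes, 3.07 to 3.67 and 1.42 to 1.88 CPM for 4 epithelial genes, and 13.1 to 15.4 and 30.0 to 31.1 CPM for 4 fibroblast genes. Of the 2 epithelial genes tested, KRT14 fell (mean 3.17 to 0.779 CPM) and EPCAM rose (mean 0.0624 to 0.690 CPM). The part of markers of other cell types in the results below was not tested.

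Import genes were mostly lower with panobinostat, and by modest amounts. Of the 31 tested genes 19 fell (61.3%) and 6 rose (19.4%), against 41.0% lower and 41.8% higher among all 15499 genes tested (edgeR's quasi-likelihood test, Benjamini-Hochberg adjusted p under 0.05). Members were called in either direction in 25 of 31 cases, near the 82.8% of all genes tested. Panobinostat libraries lay wholly below vehicle libraries for 21 members and wholly above for 6, and overlapped for 4; over all genes tested 41.5% lay below, 42.0% above and 83.4% either way. Most members are well expressed, and among the 9850 genes with a mean of 10 CPM or more 49.6% were lower and 35.6% higher. The median log2 fold change of the members was -0.26, beside 0.01 for all genes tested and -0.12 for those at 10 CPM or more. Only TOMM22 and MTX1 fell at least 2-fold, or 2 of 31, against 11.7% of all genes tested, and no member rose 2-fold, against 18.9%. Of the 9850 genes at 10 CPM or more, 1100 fell and 816 rose at least 2-fold, so 2-fold rises were rarer there. All values lay between -1.05 and 0.23. Reads of the 33 genes together made up 0.259% to 0.266% of each vehicle library and 0.234% to 0.236% of each panobinostat library. In bulk RNA, fewer cells of a kind and less RNA per cell cannot be told apart.

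**Figure D1:**
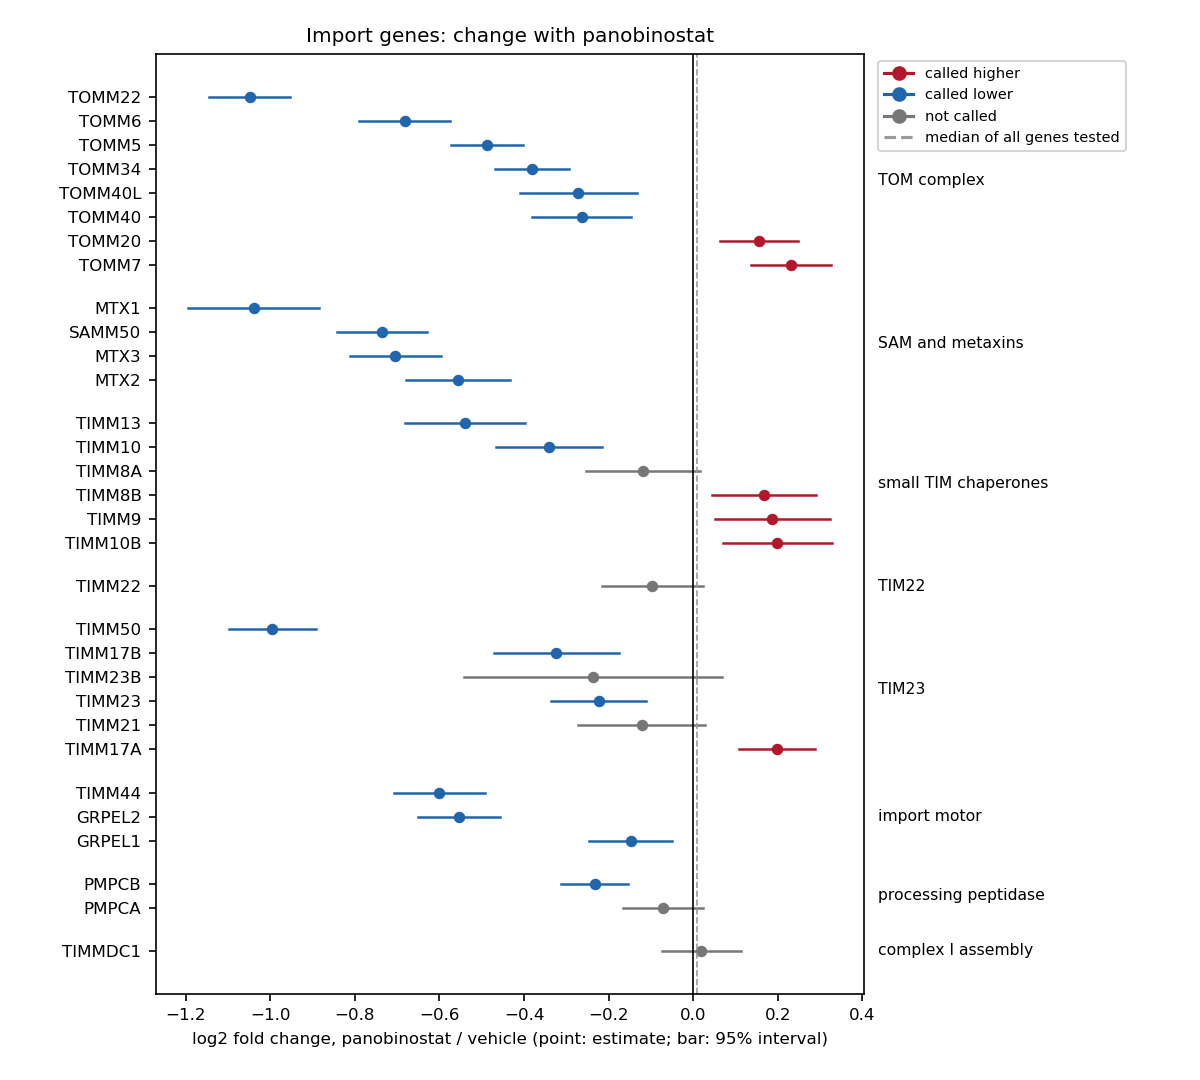
Log2 fold change of the 31 tested import genes, panobinostat over vehicle, with 95% intervals, grouped by complex; the dashed line is the median of all genes tested (0.01). The 4 SAM and metaxin genes and the 3 tested motor genes lie wholly below 0, whereas the TOM, TIM23 and small TIM groups hold genes on both sides.

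The TOM complex split between its receptors. TOMM22, the central receptor that also holds the complex together, stood at 127, 132 and 137 CPM in the vehicle libraries and at 60.9, 64.2 and 66.1 CPM with panobinostat. Every panobinostat library was below every vehicle library, and TOMM22 fell by 1.05 ± 0.05 on the log2 scale (± SE, edgeR adjusted p = 7.81e-13). TOMM20, the receptor for presequences, stood at 697, 734 and 781 CPM in vehicle and at 843, 839 and 782 CPM with panobinostat. Its highest vehicle library and lowest panobinostat library nearly met, at 780.8 and 782.0 CPM. TOMM20 rose by 0.16 ± 0.04 (edgeR adjusted p = 0.00332), and the call was lost without vehicle replicate 1 (0.10, edgeR adjusted p = 0.05004). TOMM20 was also the most abundant member per length. Over the exon length annotated by GENCODE 29 it stood at 208 CPM per kilobase in vehicle, and it ranked first as well by the median length of its coding transcripts (218 CPM per kilobase).

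TOMM40, the channel, stood at 84.9, 79.6 and 73.3 CPM in vehicle and 63.8, 64.5 and 69.7 CPM with panobinostat, without overlap, and fell by 0.26 ± 0.06. Its paralogue TOMM40L fell by a like amount (log2 change -0.27 ± 0.07). Among the small subunits that surround the channel, TOMM6 and TOMM5 fell and TOMM7 rose. TOMM6 went from 78.6, 82.6 and 82.0 CPM to 48.3, 49.2 and 54.2 CPM (log2 change -0.68 ± 0.05), and TOMM5 from 113, 117 and 118 CPM to 81.9, 81.9 and 84.3 CPM (-0.49 ± 0.04). TOMM7 stood at 107, 101 and 97 CPM in the vehicle libraries and 119, 117 and 122.8 CPM with panobinostat, and rose by 0.23 ± 0.04 (edgeR adjusted p = 0.000124). TOMM34, a cytosolic co-chaperone that carries the TOMM name, fell by 0.38 ± 0.04. Of the 8 tested TOMM genes 6 fell (75%) and 2 rose (25%), against 41.0% and 41.8% of all genes tested. The shares were 49.6% and 35.6% for genes at 10 CPM or more. TOMM20L had 12 counts in vehicle and 5 with panobinostat over 3 libraries each and was not tested.

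SAM and metaxin genes fell in all 4 cases, with a median of -0.72, while 41.0% of all genes tested fell. Of genes at 10 CPM or more 49.6% fell, and their median was -0.12. In all 4 the panobinostat libraries lay wholly below the vehicle libraries, as they did for 41.5% of all genes tested. They also did so for 4940 of the 9850 genes at 10 CPM or more. SAMM50, the channel that inserts barrel-shaped proteins into the outer membrane, stood at 69.99, 68.9 and 70.9 CPM in vehicle and 40.9, 40.1 and 45.0 CPM with panobinostat. MTX1, a metaxin on the cytosolic face of SAM, went from 28.9, 29.8 and 29.4 CPM to 12.8, 14.1 and 16.1 CPM. The log2 changes were -0.74 ± 0.05 for SAMM50 (edgeR adjusted p = 4.16e-10), -1.04 ± 0.07 for MTX1 (edgeR adjusted p = 5.80e-10), -0.70 ± 0.05 for MTX3 and -0.56 ± 0.06 for MTX2. All 4 calls held in each alternative tried. Reads of MTX1 are uncertain, since 46.8% of the 50-base words of its coding transcripts also occur in transcripts of other genes, most of them in the pseudogene MTX1P1.

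Small TIM chaperones, which work as hexamers in the intermembrane space, moved apart: 3 of 6 rose, 2 fell and 1 was not called. Over all genes tested 41.8% rose and 41.0% fell, and over those at 10 CPM or more 35.6% rose and 49.6% fell. TIMM9 and TIMM10 form 1 hexamer. TIMM9 stood at 23.2, 23.2 and 26.7 CPM in vehicle and 27.5, 28.4 and 27.4 CPM with panobinostat, whereas TIMM10 stood at 27.0, 26.7 and 26.0 CPM and then at 19.8, 21.4 and 21.8 CPM. TIMM9 rose by 0.19 ± 0.06 (edgeR adjusted p = 0.0128) and TIMM10 fell by 0.34 ± 0.06 (edgeR adjusted p = 4.69e-05). TIMM8A and TIMM13 form the other hexamer. TIMM13 fell from 36.6, 35.1 and 31.4 CPM to 22.6, 23.2 and 25.3 CPM (-0.54 ± 0.07), while TIMM8A, mutated in a deafness and dystonia syndrome, was 17.9, 18.95 and 18.6 CPM and then 17.4, 16.2 and 17.4 CPM, which was not called (-0.12, 95% interval -0.25 to 0.01). TIMM10B, which docks the hexamers on TIM22, rose by 0.20 ± 0.06, and TIMM8B by 0.17 ± 0.06. The rise of TIMM9 was lost without vehicle replicate 1 (0.13), vehicle replicate 2 (0.14) or panobinostat replicate 2 (0.17), and that of TIMM8B without vehicle replicate 2 (0.15) or panobinostat replicate 3 (0.14) and with no filter on low counts (0.12). TIMM8A passed as a fall without vehicle replicate 1 (-0.16) and with no filter (-0.16).

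**Figure D2:**
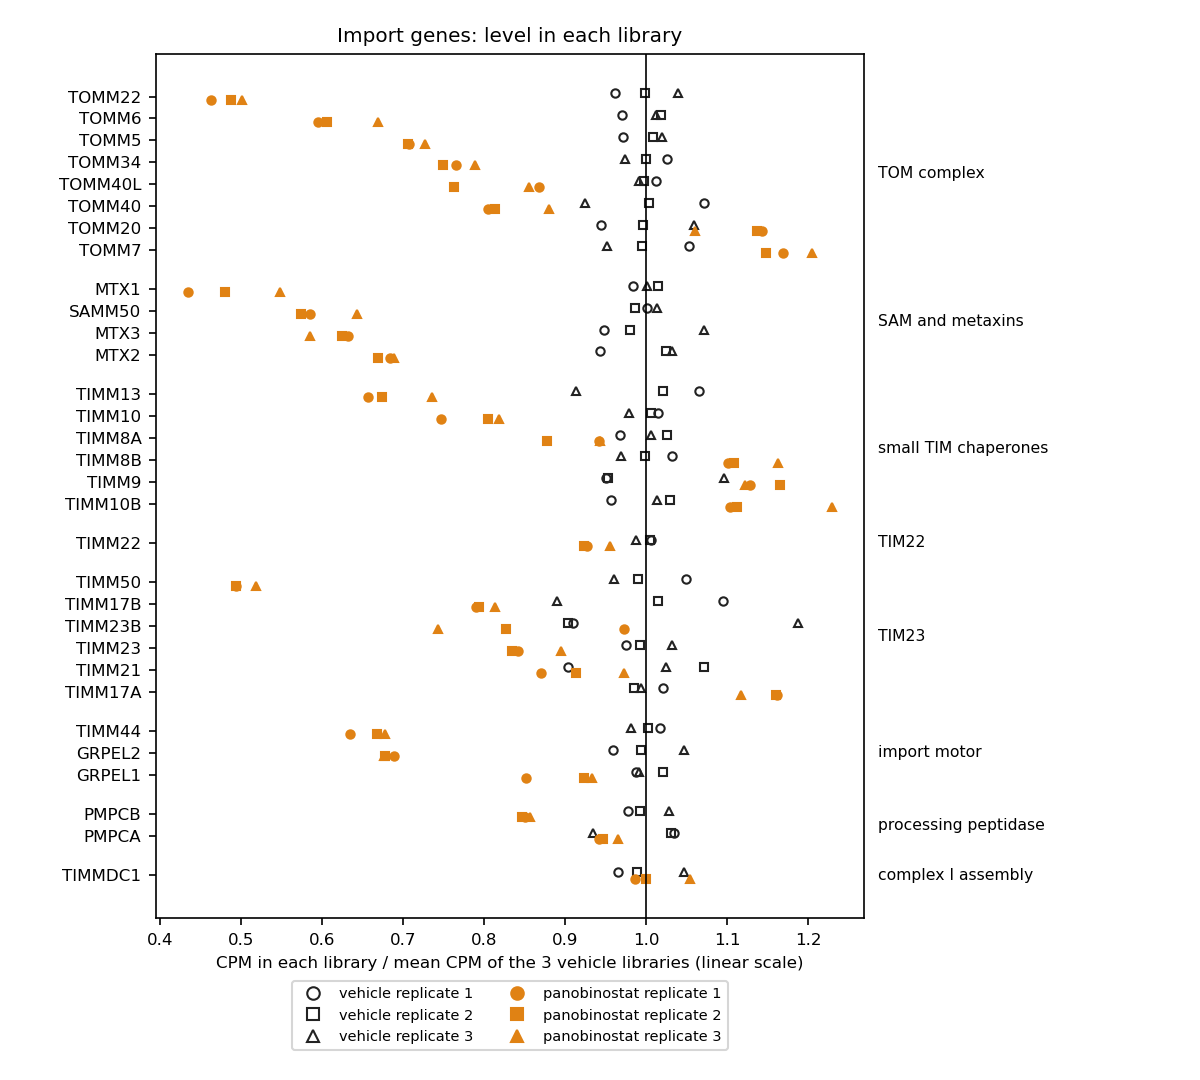
CPM of the 31 tested import genes in each library, divided by the mean of the 3 vehicle libraries (linear scale); open symbols are vehicle and filled symbols panobinostat libraries. TOMM22, MTX1 and TIMM50 with panobinostat lie near 0.5 in all 3 libraries, and 4 genes (PMPCA, TIMM21, TIMM23B and TIMMDC1) have groups that overlap.

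The carrier translocase is represented by its channel, TIMM22, at 24.6, 24.5 and 24.1 CPM in vehicle and 22.6, 22.5 and 23.3 CPM with panobinostat. The ranges did not overlap, but the difference was not called (log2 difference -0.10, 95% interval -0.21 to 0.02). TIMM22 passed as a fall with no filter on low counts (-0.14). Its partner TIMM29 stands in the table under the older symbol C19orf52, outside the symbol patterns. C19orf52, looked up after the other values had been seen, rose from 15.2 to 17.5 CPM (log2 change 0.20 ± 0.07).

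Within the TIM23 complex, TIMM50, the receptor that takes presequences from TOM and keeps the channel closed, had the largest change. It went from 89.1, 84.1 and 81.6 CPM to 41.9, 41.9 and 44.0 CPM, a log2 change of -0.995 ± 0.05 (edgeR adjusted p = 3.84e-12). The channel gene TIMM23 stood at 37.5, 38.1 and 39.7 CPM in vehicle and 32.3, 32.1 and 34.4 CPM with panobinostat, and fell by 0.22 ± 0.05. That call was lost with upper quartile scaling (-0.10). TIMM21, which links TIM23 to TOM, was not called (-0.12, 95% interval -0.27 to 0.03), with 20.2, 24.0 and 23.0 CPM in vehicle and 19.5, 20.5 and 21.8 CPM with panobinostat, and passed as a fall without vehicle replicate 1 (-0.21) and with no filter on low counts (-0.17). TIMM23B, a near copy of TIMM23, was low (3.21 ± 0.521 and 2.72 ± 0.374 CPM, SD, n = 3) and not called, and 199 of its 50-base words also occur in TIMM23 transcripts, so reads may be split between the pair.

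TIMM17A and TIMM17B, alternative subunits of the same channel, moved in opposite directions. TIMM17A stood at 73.3, 70.7 and 71.2 CPM in vehicle and 83.3, 83.2 and 80.1 CPM with panobinostat. TIMM17B stood at 33.5, 31.1 and 27.3 CPM in vehicle and 24.2, 24.3 and 24.9 CPM with panobinostat. Neither pair of ranges overlapped. TIMM17A rose by 0.20 ± 0.04 (edgeR adjusted p = 0.000385) and TIMM17B fell by 0.32 ± 0.07 (edgeR adjusted p = 0.000381), and both calls held in each alternative tried.

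Motor genes, which pull proteins into the matrix with the chaperone encoded by HSPA9, fell in all 3 tested cases, against 41.0% of all genes tested. Of genes at 10 CPM or more 49.6% fell. TIMM44, the scaffold that anchors the motor to the channel, went from 47.2, 46.5 and 45.5 CPM to 29.4, 31.0 and 31.4 CPM (log2 change -0.60 ± 0.05, edgeR adjusted p = 7.50e-09). GRPEL2, 1 of 2 nucleotide exchange factors of the motor, went from 79.0, 81.8 and 86.2 CPM to 56.7, 55.8 and 55.7 CPM (-0.55 ± 0.05). The other, GRPEL1, was 74.3, 76.9 and 74.7 CPM in vehicle and 64.2, 69.5 and 70.3 CPM with panobinostat (-0.15 ± 0.05, edgeR adjusted p = 0.00769), a fall that was lost with upper quartile scaling (-0.03), with a filter of 5 CPM in 3 libraries (-0.05) and without panobinostat replicate 1 (-0.11). PAM16, a regulatory J-like subunit, had 0 to 5 counts in each library. The readthrough gene CORO7-PAM16, which shares exons with PAM16 in GENCODE 29, had 0 counts in every library. How shared exons were counted by the authors is not stated in the labels or the file.

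Of the 2 processing peptidase subunits, PMPCB, the catalytic one, fell by 0.23 ± 0.04, from 152, 155 and 160 CPM to 132, 132 and 133 CPM. PMPCA, which binds the presequence, stood at 121, 120 and 109 CPM in vehicle and at 109.7, 110.3 and 112.5 CPM with panobinostat, and was not called (-0.07, 95% interval -0.17 to 0.02). PMPCA passed as a fall without vehicle replicate 3 (-0.14) and with no filter on low counts (-0.12). TIMMDC1 carries the TIMM name but helps to assemble respiratory complex I. It was 105, 107 and 113.5 CPM in vehicle and 107, 108 and 114 CPM with panobinostat, with overlapping ranges (0.02, 95% interval -0.07 to 0.11). TIMMDC1 was called higher under upper quartile scaling (0.14) and under the 5 CPM filter (0.11).

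Ratios of 2 genes within a library do not depend on scaling, and 12 pairs of paralogues or partners were compared. With 3 libraries against 3 the exact two-sided permutation test cannot go below p = 0.1, which becomes 0.133 after Benjamini-Hochberg adjustment over the pairs, so no pair could pass. In 9 of the 12 pairs the groups did not overlap, each with that smallest p. Single genes did not overlap between the groups in 83.4% of all genes tested. No such share was taken over other gene pairs, so the count is not shown to be particular to these pairs. The count ratio of TIMM10B to TIMM10 was 0.918, 0.996 and 1.008 in vehicle and 1.44, 1.35 and 1.46 with panobinostat, a log2 difference of 0.54. The ratio of TIMM9 to TIMM10 was 0.858, 0.869 and 1.03 in vehicle and 1.39, 1.33 and 1.26 with panobinostat (0.53). TIMM10 was thus the more read of these 2 hexamer partners in vehicle replicates 1 and 2, and TIMM9 in vehicle replicate 3 and all panobinostat libraries, on raw counts that are not corrected for length. For TIMM17A to TIMM17B the ratio was 2.18, 2.27 and 2.61 in vehicle and 3.44, 3.42 and 3.22 with panobinostat (0.52). GRPEL2 to GRPEL1 moved the other way, from 1.06, 1.06 and 1.15 to 0.883, 0.802 and 0.793 (-0.41). TIMM8A to TIMM13, MTX2 to MTX1, TIMM8A to TIMM8B, PMPCB to PMPCA and MTX3 to MTX2 differed by 0.42, 0.49, -0.29, -0.16 and -0.15. The ratios of TOMM40L to TOMM40, TIMM23B to TIMM23 and TOMM20L to TOMM20 overlapped between the groups, and the last of these, which rests on the few reads of TOMM20L, is not plotted.

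**Figure D3:**
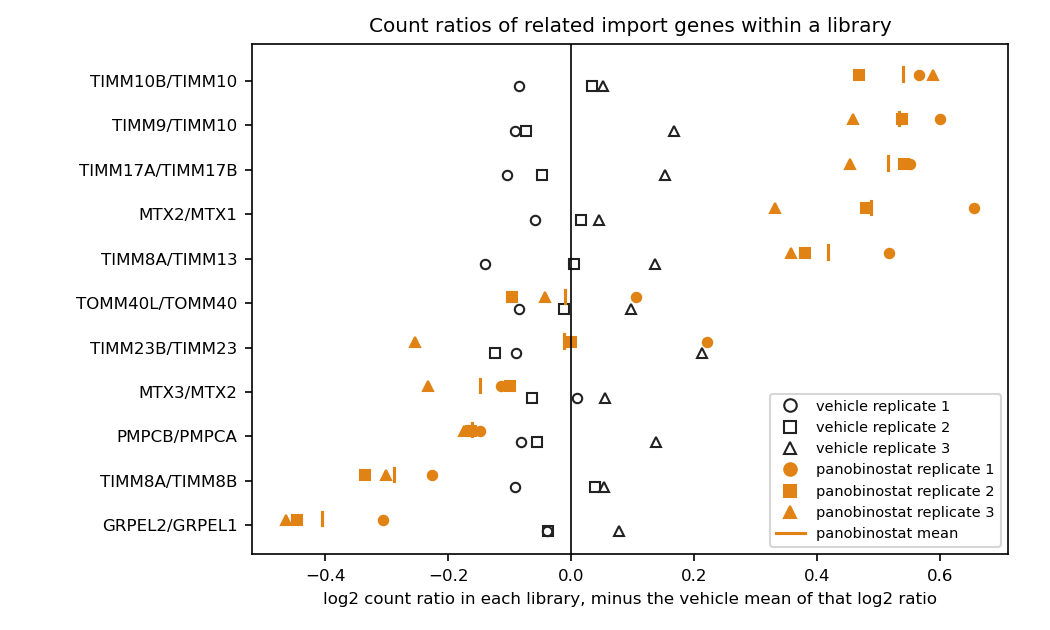
Log2 count ratio of 11 gene pairs in each library, set to 0 at the vehicle mean of each pair; open symbols are vehicle libraries, filled symbols panobinostat libraries, and short bars the panobinostat mean. TIMM10B/TIMM10, TIMM9/TIMM10 and TIMM17A/TIMM17B lie 0.52 to 0.54 above vehicle, and TOMM40L/TOMM40 and TIMM23B/TIMM23 overlap it.

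Promoters of import genes were read from RefSeq (GRCh38.p14; 250 bases before to 50 after the start), where 30 of the 33 genes had an entry. Strings tied to regulators of nuclear genes for mitochondrial proteins were searched on both strands. The core CCGGAAG, bound by ETS factors such as GABP, was in 14 of the 30 promoters (46.7%), against 10.7% of all 27305 promoters and 21.3% of those of tested genes with a mean of 10 CPM or more. It was in 10 of 17 promoters of members that fell, 2 of 5 of members that rose and 2 of 6 of members not called. Over all tested genes 19.5% of promoters of genes that fell held it, 14.3% of those that rose and 20.3% of those not called. The NRF1 string (GCGC, any base, T and GCGC in a row) was in 6 of 30 (20%), against 6.28% of all promoters and 12.9% of those at 10 CPM or more. It was in 3 of 17 promoters of members that fell, 2 of 5 of members that rose and 0 of 6 of members not called, against 11.5%, 9.32% and 12.1% over all tested genes. AAGATGGCG, a YY1 string, was in 4 of 30 (13.3% against 1.85% and 4.61%), and the MYC string CACGTG in 4 of 30 (13.3% against 7.43% and 10.8%). These strings do not contain one another. Members had a median GC content of 65.2%, near the 65.7% of tested genes at 10 CPM or more, and all promoters 58.3%. A match is a run of letters, not a shown site of binding.

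The stretches around CCGGAAG are printed for members that moved in each direction, to show how near the string lies to the start and that genes with opposite changes carry it. Each runs 5′ to 3′ on the gene's strand, stops at or before the start, and has the string or its reverse complement CTTCCGG in capitals. GRPEL2 holds 3 copies (chr5:149345332-149345459, + strand), TIMM10 2 (chr11:57530755-57530829, - strand) and TOMM6 2 (chr6:41787542-41787640, + strand), and these fell. PMPCB (chr7:103297398-103297434, + strand) and MTX3 (chr5:79991263-79991290, - strand) fell too. TOMM20 (chr1:235128838-235128879, - strand) and TIMM10B (chr11:6481436-6481482, + strand) rose.
GRPEL2: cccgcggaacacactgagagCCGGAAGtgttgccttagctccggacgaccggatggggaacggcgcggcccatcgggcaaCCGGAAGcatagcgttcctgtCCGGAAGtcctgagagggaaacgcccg
TIMM10: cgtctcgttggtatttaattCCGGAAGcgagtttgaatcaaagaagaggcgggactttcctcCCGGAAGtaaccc
TOMM6: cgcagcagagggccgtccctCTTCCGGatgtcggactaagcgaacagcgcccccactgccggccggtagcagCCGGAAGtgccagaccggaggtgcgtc
PMPCB: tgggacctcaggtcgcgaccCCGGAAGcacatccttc
MTX3: ggaaattaggaggaaaagtaCTTCCGGg
TOMM20: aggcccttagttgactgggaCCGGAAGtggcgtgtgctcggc
TIMM10B: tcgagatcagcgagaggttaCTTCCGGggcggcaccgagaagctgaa

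The NRF1 string was found before the start of TOMM20 (chr1:235128909-235128958, - strand) and TOMM7 (chr7:22822850-22822883, - strand), which rose, and of TOMM34 (chr20:44960398-44960431, - strand), which fell. The string or its reverse complement is in capitals below. TOMM40, which fell, and PAM16, which was not tested, carry it before the start too, and GRPEL2, which fell, after it.
TOMM20: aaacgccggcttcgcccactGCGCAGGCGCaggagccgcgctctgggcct
TOMM7: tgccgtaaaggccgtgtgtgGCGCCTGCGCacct
TOMM34: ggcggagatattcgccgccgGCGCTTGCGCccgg

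The copies TIMM23 (chr10:45972421-45972467, + strand) and TIMM23B (chr10:49941984-49942037, + strand) both carry the ETS string, once and in 2 adjoining copies before the start; they are shown because reads may be split between this pair.
TIMM23: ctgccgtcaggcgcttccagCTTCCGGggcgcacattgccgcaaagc
TIMM23B: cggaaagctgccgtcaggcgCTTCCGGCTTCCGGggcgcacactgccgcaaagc

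A further 19 tested genes act with the import machinery but have other symbols or, as TOMM70A (current symbol TOMM70), an older one. Of these 6 rose (31.6%) and 10 fell (52.6%), with a median of -0.13. These shares are near those of genes at 10 CPM or more, of which 35.6% rose and 49.6% fell, with a median of -0.12. Of all genes tested 41.8% rose and 41.0% fell. TOMM70A, the receptor for carriers and other proteins without a presequence, rose from 249, 253 and 264 CPM to 301.4, 300.6 and 301.9 CPM (0.24 ± 0.04), like TOMM20 and unlike TOMM22. Chaperones of the matrix parted: HSPA9, the motor's ATPase, rose from 421, 422 and 430 CPM to 537, 538 and 549 CPM (0.35 ± 0.03), whereas the folding chaperonin genes HSPD1 and HSPE1 fell, by 1.15 ± 0.04 and 1.22 ± 0.06. DNAJC15 and DNAJC19, J-proteins of the motor, rose by 0.61 ± 0.06 and fell by 0.72 ± 0.08. DNLZ, which keeps the HSPA9 protein soluble, fell by 1.64 ± 0.12, and MIPEP, an intermediate peptidase, rose by 0.56 ± 0.05. The disulfide relay genes CHCHD4 and GFER, which oxidise small TIM proteins, fell by 0.87 ± 0.06 and 0.67 ± 0.07, and AGK, a subunit of TIM22, fell by 0.81 ± 0.05. Of 9 genes that shape cristae, next to SAM and TIM23 in the membrane, 7 fell (77.8%), beside 49.6% of genes at 10 CPM or more. Those that fell include DNAJC11 (-0.39 ± 0.05), OPA1 (-0.33 ± 0.04) and APOOL (-0.36 ± 0.05), and CHCHD3 and APOO were not called. Of 9 quality control proteases 6 fell (66.7%) and 2 rose (22.2%), beside 49.6% and 35.6% of genes at 10 CPM or more. Those that fell include AFG3L2 (-0.66 ± 0.04), PARL (-0.69 ± 0.06) and CLPP (-0.74 ± 0.07). HTRA2 rose by 1.16 ± 0.05 and LONP1 by 0.31 ± 0.05.

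**Figure D4:**
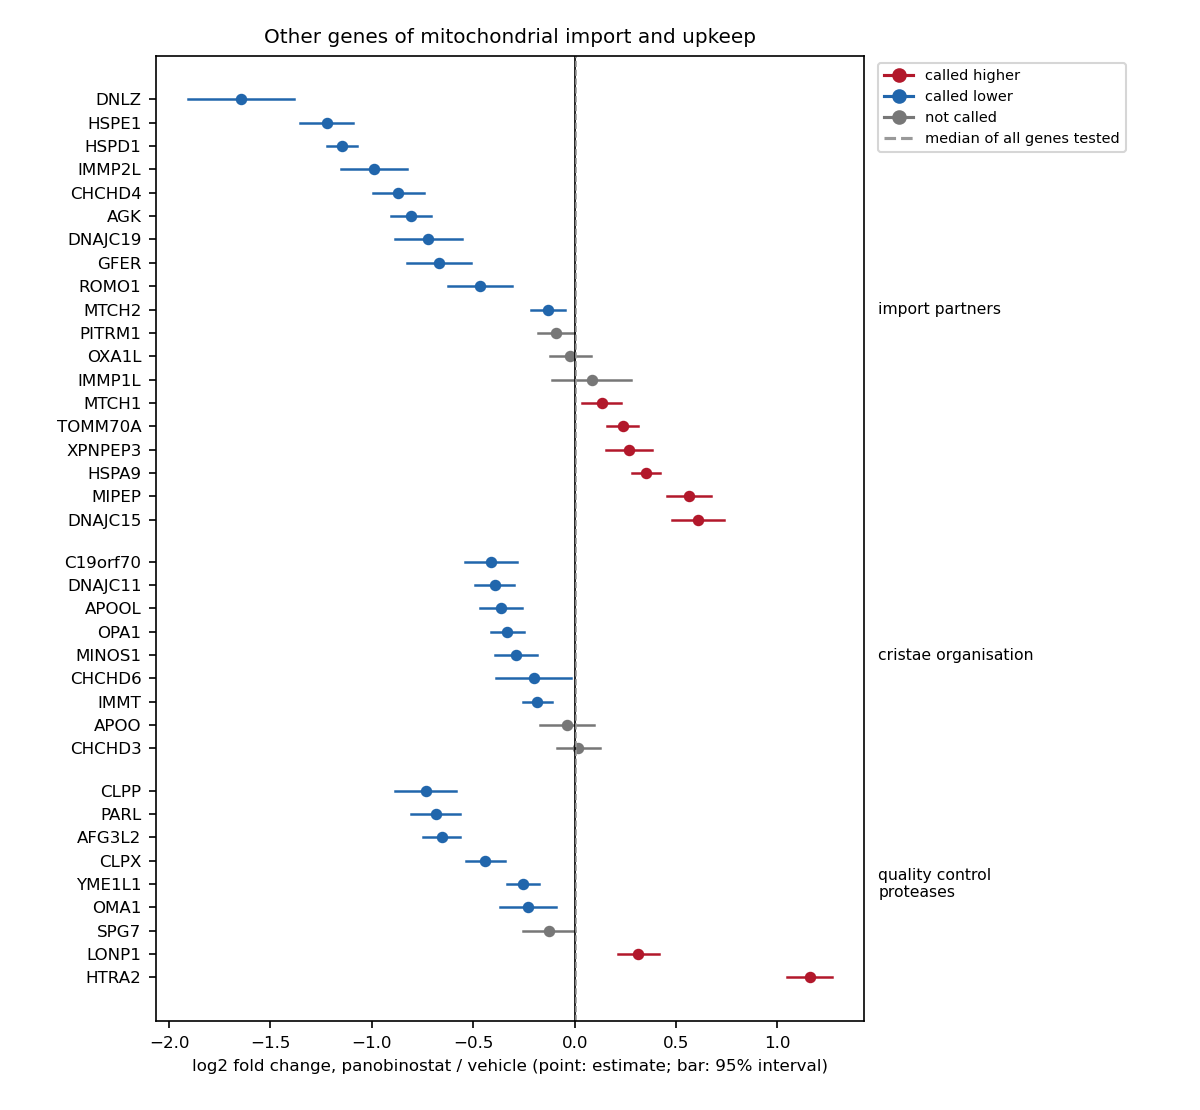
Log2 fold change, panobinostat over vehicle, with 95% intervals, of genes that act with or beside the import complexes but were not chosen by symbol. HSPD1, HSPE1 and DNLZ lie below -1, and HSPA9, TOMM70A and DNAJC15 above 0.

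Some counts may hold reads of other genes, because neither labels nor file say whether strand was used in counting. In GENCODE 29 every exonic base of TOMM6 is shared with another gene, among them USP49 on the opposite strand. For TIMM8B, TIMM9, TIMMDC1 and TIMM13 the shared part is 32.3%, 30.5%, 29.2% and 28.9% of exonic bases, mainly with genes on the opposite strand. Words of 50 bases from the coding transcripts also occur in transcripts of other genes for all of TOMM6 (in AL365205.1, same strand), 62.9% of TOMM5 (mainly AL138752.2 and AL513165.2, same strand) and 46.2% of TIMM8B (mainly NKAPD1, opposite strand). Reads of these 3 may be uncertain as well. The annotation behind the counts is not stated, so whether these other genes were counted apart is not known. Members that share no exonic base with another gene include TOMM22, TOMM20, TOMM7, TIMM10, TIMM17A, TIMM23, TIMM50 and MTX2.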

How the data were processed

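Bulk RNA of 6 A375 libraries was analysed from whole-number read counts per gene symbol that the authors deposited in 1 table without normalization. The aligner is named only in the table's file name, as STAR; version, build, annotation and strand use are not stated there or in the labels. The table had 25435 lines, of which 92 spike-in lines (0 counts) were left out. Samples were grouped by the labelled dose, and columns were matched by title; the labels name no batch. No 2 libraries were identical.

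Genes were kept by filterByExpr, scaled by TMM and tested with edgeR 4.0.16 (glmQLFit, robust, glmQLFTest) in R 4.3.3 on group alone, with Benjamini-Hochberg adjustment over all genes tested and a threshold of 0.05. SEs derive from the F statistic. The common coefficient of variation between libraries, which edgeR calls biological, was 0.0449. Here it may be technical only, since the labels do not tell separate cultures from repeat libraries. Ratios of 2 genes used counts plus 0.5, per library. Exon lengths, overlaps and 50-base words came from GENCODE 29, and promoters from RefSeq. Alternatives used DESeq2 1.42.0, limma 3.58.1 (voom), other scalings and filters, a replicate block and leaving out each library. The edgeR, DESeq2 and limma-voom fits were tested on simulated counts in which few genes changed, whereas 82.8% of genes tested were called here. The simulation therefore cannot tell how scaling behaves when most genes change. The ratio, promoter and 50-base word steps were not tested on simulated data. Plots used Python 3.11.15 and matplotlib 3.10.9.

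The members and gene lists were chosen with earlier results of these data known. Every member is named; of other lists, up to 3 called genes per direction by adjusted p and those a count needs, and further partners named were chosen after their values were seen. A gene that had stood in the list of partners is not reported here and is left out of that list's counts and median.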

Additional observations from a re-analysis of the deposited data

How the results depend on the processing

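Over the alternatives 17 to 23 members fell and 4 to 7 rose, and partner counts stayed within 1.5 times. Of the 19 falls 17 kept their call in every alternative run, and of the 6 rises 3 (TOMM7, TIMM10B and TIMM17A). The median of the members was -0.14 with upper quartile scaling, which moved the median of all genes to 0.13, -0.31 with no filter on low counts, -0.17 with the 5 CPM filter, and -0.30 to -0.23 when 1 library was left out. Measured from the median of all genes it was -0.27 both as reported and with upper quartile scaling, but -0.16 under the 5 CPM filter and -0.43 with no filter. Direction turned only for values not called. These were, with upper quartile scaling, PMPCA (0.048), TIMM22 (0.024), TIMM8A (0.0011), OXA1L (0.099) and PITRM1 (0.029), and with the 5 CPM filter PMPCA (0.022), OXA1L (0.073) and PITRM1 (0.0029). TIMMDC1 was -0.025 with no filter. Leaving out 1 library gave -0.023 to 0.036 for TIMMDC1, -0.019 to 0.13 for IMMP1L, -0.075 to 0.0028 for OXA1L, -0.069 to 0.038 for the ratio of TOMM40L to TOMM40 and -0.13 to 0.11 for that of TIMM23B to TIMM23, which was 0.0011 with 5 added counts. The cause of these turns was not tested. With a replicate block (title numbers as pairs) 6 members rose and 19 fell, with a median of -0.26. Same-numbered libraries deviated apart (correlations -0.14, -0.11 and -0.27), and none correlated best with its own number. Deviations were taken from the mean of each group, which forces positive and negative correlations to balance. These values therefore cannot tell whether same-numbered libraries were handled together, and the labels do not say. PAM16 and TOMM20L had too few counts to test, and whether reads of PAM16 were lost to exons shared with CORO7-PAM16 was not tested.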

Other observations

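Transcription factors and coactivators of nuclear genes for mitochondrial proteins moved in both directions. Of 12 tested 3 rose (25%) and 8 fell (66.7%). The shares were 41.8% and 41.0% over all genes tested, and 35.6% and 49.6% over those at 10 CPM or more. PPARGC1A, the coactivator PGC-1 alpha, stood at 0.439, 0.406 and 0.389 CPM in vehicle and at 29.3, 29.8 and 26.2 CPM with panobinostat (log2 change 6.10 ± 0.12, SE), and PPARGC1B and ESRRA, a related coactivator and its nuclear receptor partner, rose by 0.61 ± 0.07 and 0.52 ± 0.06. MYC fell by 1.37 ± 0.09, the coactivator PPRC1 by 0.82 ± 0.05 and NRF1 by 0.65 ± 0.07. YY1 was not called (0.07 ± 0.04).

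Genes for abundant mitochondrial proteins outside import were measured beside them. Of 8 tested 5 fell (62.5%) and 2 rose (25%), beside 49.6% and 35.6% of genes at 10 CPM or more. The median of the 8 was -0.29, close to the -0.26 of the import genes, a likeness that was not tested. The carrier SLC25A5 fell by 0.88 ± 0.04, the channel VDAC3 by 0.72 ± 0.05 and the prohibitin PHB2 by 0.56 ± 0.04, and CS, citrate synthase, was 301 ± 7.13 and 292 ± 7.83 CPM (SD, n = 3), not called. VDAC2 and PHB rose by 0.14 ± 0.05 and 0.19 ± 0.04.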
